A study of Mus musculus with 6 samples.

Results

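The contacts described here join the D-J region of the mouse immunoglobulin heavy chain (Igh) locus to the distal V genes. The region as taken here ran from a few kb 3′ of the intronic enhancer, through the enhancer and the J segments, into the D segments. They were taken by position: forward-reverse primer pairs of the Igh primer set with 1 fragment midpoint in chr12:114656273-114691293 (mm9) and the other in chr12:115723372-117190694. That gave 461 primer pairs of 12656 in the Igh locus and 18768 in all, built from 13 D-J fragments and 71 distal V fragments, 1040.8 to 2530.7 kb apart on the reference sequence. The V fragments were divided by position into 43 near ones (chr12:115723372-116439886) and 28 far ones (chr12:116539430-117190694), which gave 279 near and 182 far pairs. The rule itself used positions and no measured value, but it was chosen with earlier results of these data known.

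The series measured chromatin contacts by 5C, in which a forward and a reverse primer are ligated across a HindIII junction and the sequenced products of every such primer pair are counted. The 3 cell types had 2 biological replicate libraries each. Resting B cells were CD43- cells taken straight from the spleen with magnetic beads, and no genetic change is given in their labels. Pro-B cells came from Rag2-deficient bone marrow and were expanded for 4 days in IL7. MEF, murine embryonic fibroblasts that do not rearrange the locus, were used from culture, and no genetic change is given in their labels. Tissue, culture and cell type differ together between the groups and cannot be told apart. The assay holds no expression data against which the cell types could be checked.

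In B lymphocyte development the RAG recombinase joins a D to a J segment and then a V to the DJ segment, and the DNA between the joined segments is deleted. Without Rag2 neither step takes place, so the pro-B alleles are unrearranged, whereas B cells of the spleen carry rearranged alleles. The intronic enhancer lies just 3′ of the J segments, is known as an anchor of loops in the locus, and stays on the chromosome after rearrangement. Along the reference sequence the coordinates rise through the constant genes, the enhancer, the J and D segments and then the V genes. Positions 3′ of the enhancer are therefore lower coordinates, given below as negative distances, and positions 5′ are positive. Separations are those of the unrearranged sequence and are shorter on an allele where a distal V gene has been joined.

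The enhancer fragment is REV 81 (chr12:114664824-114667095). Its reverse-primer neighbours are REV 77 at -6.6 kb, REV 79 at -2.8 kb, REV 83 at 3.0 kb, REV 85 at 8.3 kb and REV 90 at 17.3 kb, measured between midpoints. The forward-primer neighbours are FOR 76 at -8.4 kb, FOR 78 at -4.9 kb, FOR 80 at -1.5 kb, FOR 82 at 1.5 kb, FOR 84 at 5.5 kb, FOR 86 at 10.3 kb and FOR 91 at 23.0 kb. Fragments at negative distances lie on the constant-gene side of the enhancer and are called D-J fragments by position only. Forward fragments meet the 35 reverse fragments of the distal V region, and reverse fragments meet the 36 forward ones. Pairs that share a fragment share its primer and are not replicates of each other.

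Libraries held 20580457 to 24191175 valid read pairs. The D-J with distal V pairs held 90066 and 94974 reads in the resting B libraries, 57307 and 115434 in the pro-B libraries, and 62518 and 77365 in MEF. As a share of Igh reads these were 0.472% and 0.501% in the resting B libraries, 0.278% and 0.555% in the pro-B libraries, and 0.283% and 0.365% in MEF. The 95% Wilson interval of the lowest share was 0.276% to 0.281%, which covers counting error only, since the files carry no molecular identifiers. Pearson's correlation of log2 of reads plus 1 over the 461 pairs was 0.862 between the resting B libraries, 0.798 between the MEF libraries and 0.524 between the pro-B libraries. Pro-B replicate 2 stood apart. It listed 79 of the 461 pairs with no read, against 11 to 21 in the other libraries, and its median was 0.595 scaled CPM (CPM on the effective library size), against 2.00 to 2.45 in the others. A pair with no read could hold up to 3 reads of the library.

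In sums of reads the enhancer fragment showed the largest fold of the 13 in resting B cells, over MEF and over pro-B cells. With all pairs weighted equally FOR 78 was higher over pro-B cells, at 2.80 on the log2 scale against 2.53 for the enhancer (limma), and so was its median pair fold over pro-B cells, 2.30 against 1.81. Summed over its 36 distal V partners it had 36796 and 40175 reads in the resting B libraries, 10004 and 6604 in the pro-B libraries, and 6582 and 9383 in MEF. In scaled CPM these were 1542 and 1859 in the resting B libraries, 571 and 281 in the pro-B libraries, and 385 and 342 in MEF. Both resting B libraries were above all 4 others, while the pro-B and MEF libraries overlapped. The sum was higher in resting B cells than in MEF by 2.23 ± 0.41 on the log2 scale (± SE, n = 2 in each group; edgeR quasi-likelihood test, Benjamini-Hochberg adjusted p = 0.00925 over 2465 sums of a fragment with a region). Over pro-B cells the difference was 2.00 ± 0.41 (edgeR adjusted p = 0.0107), and it was 1.57 without pro-B replicate 2 (edgeR adjusted p = 0.00298). Between pro-B cells and MEF it was 0.23 ± 0.39 (edgeR adjusted p = 0.798). The call over MEF did not hold without MEF replicate 1 (2.31, edgeR adjusted p = 0.071), MEF replicate 2 (2.14, 0.0613), resting B replicate 1 (2.36, 0.0621) or resting B replicate 2 (2.09, 0.0814). The call over pro-B cells did not hold without resting B replicate 1 (2.13, edgeR adjusted p = 0.0666) or replicate 2 (1.86, 0.0879).

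**Figure D1:**
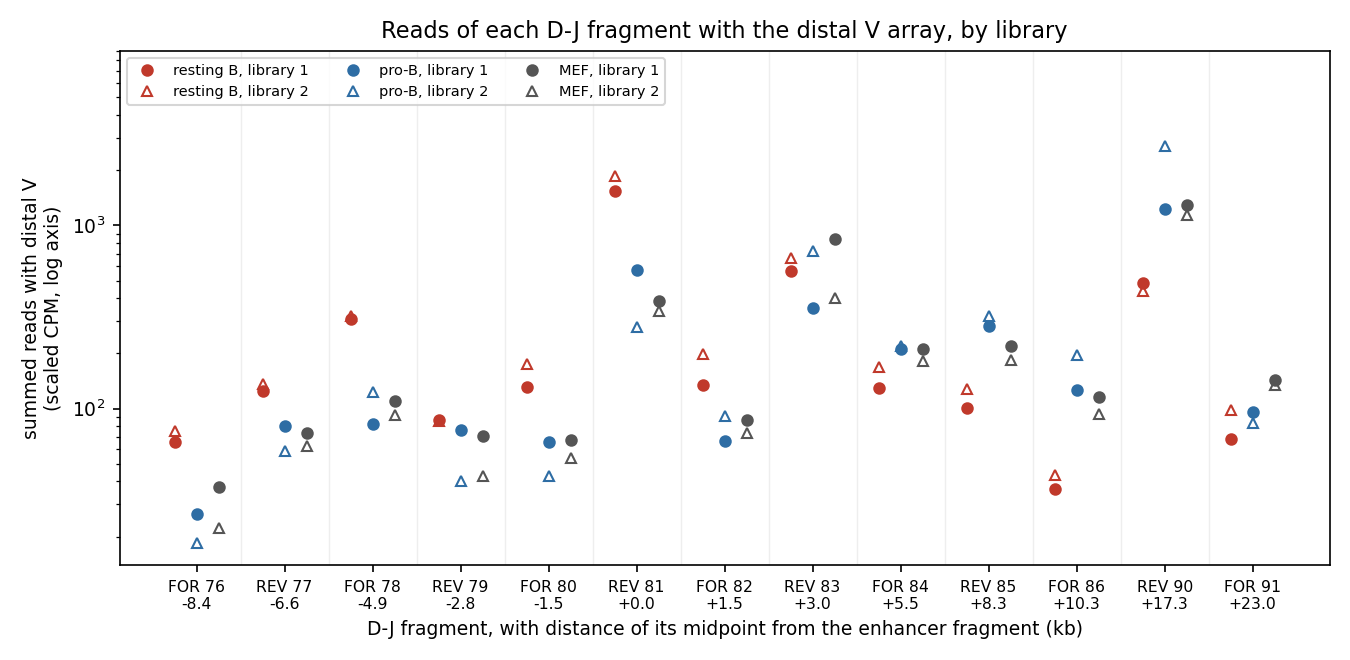
Reads of each of the 13 D-J fragments summed over its distal V partners, in scaled CPM on a log axis, for each of the 6 libraries. Fragments run from 3′ on the left to 5′ on the right, with their distance from the enhancer fragment in kb; at REV 81 the resting B libraries sit at 1542 and 1859, and at FOR 86 they sit at 36.2 and 43.2, below the other 4 libraries.

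The enhancer also rose against its D-J neighbours within the same libraries, a measure that library scaling does not enter. The 5 other reverse fragments of the D-J region, which meet the same 36 partners, held 32394 and 31496 reads in the resting B libraries, 35472 and 90541 in the pro-B libraries, and 42754 and 50079 in MEF. The ratio of enhancer reads to neighbour reads was 1.14 and 1.28 in the resting B libraries, 0.282 and 0.0729 in the pro-B libraries, and 0.154 and 0.187 in MEF. Both resting B ratios were above the other 4. With the neighbours' reads as offset, the enhancer was higher in resting B cells than in MEF by 2.82 ± 0.60 on the log2 scale (± SE, n = 2 in each group; edgeR quasi-likelihood, Benjamini-Hochberg adjusted p = 0.0359). Against pro-B cells it was higher by 2.76 ± 0.60 (edgeR adjusted p = 0.0197), and by 2.10 without pro-B replicate 2 (edgeR adjusted p = 0.00303). Between pro-B cells and MEF the same measure was 0.06 ± 0.56 (edgeR adjusted p = 0.97), and without pro-B replicate 1 it reversed to -1.23 and passed (edgeR adjusted p = 0.0499). Without any 1 MEF or resting B library the fold over MEF lay between 2.69 and 2.97 and the edgeR adjusted p between 0.148 and 0.239, so the call did not hold. The call over pro-B cells did not hold without a MEF or resting B library either, at 2.68 to 2.85 with an adjusted p of 0.0511 to 0.128.

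A single pair weighed on these ratios. REV 90 with FOR 399 (chr12:115776652-115778814), 1094.5 kb apart, had 7937 and 5996 reads in the resting B libraries, 18621 and 60604 in the pro-B libraries, and 19017 and 24211 in MEF. It made up 8.81% and 6.31% of the D-J with distal V reads in the resting B libraries, 32.5% and 52.5% in the pro-B libraries, and 30.4% and 31.3% in MEF. The enhancer's share of the reads was 40.9% and 42.3% in the resting B libraries, 17.5% and 5.72% in the pro-B libraries, and 10.5% and 12.1% in MEF. Without that pair the share was 44.8% and 45.2% in the resting B libraries, 25.9% and 12.0% in the pro-B libraries, and 15.1% and 17.7% in MEF. Both resting B shares were the highest with and without it. Relative to its neighbours, with the strongest pair of every sum left out, the enhancer rose over MEF by 1.67 (edgeR adjusted p = 0.0335). Over pro-B cells it rose by 1.58 (edgeR adjusted p = 0.0202). With all pairs these log2 folds were 2.82 and 2.76.

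The reverse fragments were also ranked by reads within each V partner. The enhancer fragment had the most reads of the 6 reverse D-J fragments for 31 and 31 of the 36 forward V fragments in the resting B libraries, for 26 and 9 in the pro-B libraries, and for 18 and 16 in the MEF libraries. REV 83 came first for 4 and 4 partners in the resting B libraries, 5 and 10 in the pro-B libraries, and 12 and 12 in MEF. These ranks compare different primers, whose efficiencies differ, so the contrast lies between libraries and not between fragments.

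The gain was spread over the distal V array. Of the 36 pairs with the enhancer fragment 35 had enough reads to test, and all 35 were higher in both resting B libraries than in both MEF libraries, where 33.9% of all tested Igh pairs were. Their log2 folds ran between 0.42 and 4.72 with a median of 1.83, against a median of -0.02 over all 11940 tested Igh pairs. Over pro-B cells all 35 folds were above 0, with a median of 1.81, and 29 pairs did not overlap in that direction, where 33.0% of all pairs did. Between pro-B cells and MEF 18 of the 35 folds were above 0, with a median of 0.03. In that comparison 7 pairs were higher without overlap and 2 were lower, where 19.3% and 22.8% of all pairs were. Over MEF the median fold was 1.83 for near and 1.84 for far partners of the enhancer, and the difference between near and far was not tested. On their own, 1 of the 35 pairs passed the edgeR test over MEF, where 0.369% of all Igh pairs were called higher, and 3 passed over pro-B cells, where 2.74% were.

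**Figure D2:**
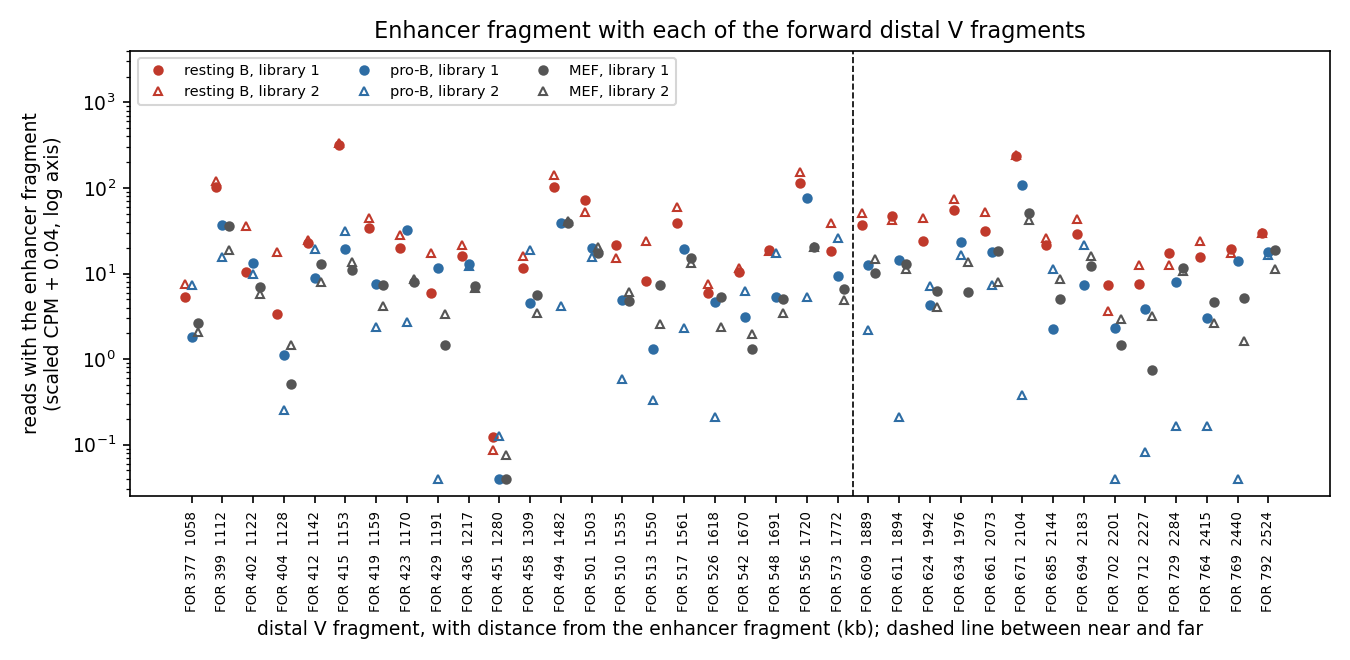
Reads of the enhancer fragment with each of the 36 forward distal V fragments, in scaled CPM plus 0.04 on a log axis, for each library, ordered by distance from the enhancer fragment in kb. The resting B points lie above the MEF points at the 35 tested partners; FOR 451 held almost no reads in any library, and pro-B library 2 falls far below pro-B library 1 at several partners.

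FOR 415 (chr12:115816276-115822016), 1153.2 kb from the enhancer, was its strongest partner in resting B cells. In scaled CPM this pair had 319 and 332 in the resting B libraries, 19.3 and 31.3 in the pro-B libraries, and 11.0 and 13.7 in MEF, so the resting B libraries stood apart by more than the spread within any cell type. FOR 671 (chr12:116768031-116772149), 2104.1 kb away, came next with 235 and 241 in the resting B libraries, 108 and 0.340 in the pro-B libraries, and 51.3 and 41.6 in MEF. Its pro-B values, 1897 and 8 reads, lay on either side of the MEF values. FOR 671 also led the partners in MEF and, through replicate 1, in pro-B cells by mean scaled CPM.

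FOR 556, 1720.1 kb away, had 114 and 152 scaled CPM with the enhancer in the resting B libraries, 77.0 and 5.22 in the pro-B libraries, and 20.2 and 20.4 in MEF. The resting B libraries were highest and the pro-B libraries were again far apart. Over the 36 partners, Pearson's r of log2 of reads plus 1 was 0.941 between the resting B libraries and 0.894 between the MEF libraries. It was 0.834 to 0.910 between a resting B and a MEF library, so partners strong in resting B cells tended to be strong in MEF. FOR 415, the strongest in resting B cells, was not among the 5 strongest in MEF. Pro-B replicate 1 correlated at 0.847 to 0.877 with the resting B and MEF libraries and pro-B replicate 2 at 0.429 to 0.453. These points share the enhancer primer and each V primer's own efficiency, and the values are descriptions. By mean scaled CPM FOR 671, FOR 556, FOR 494 and FOR 399 were among the 5 strongest partners in all 3 cell types, which in pro-B cells rested on replicate 1. In pro-B replicate 2 they had 8, 123, 97 and 368 reads, below FOR 415 with 737 and FOR 573 with 612, and none of the 4 was among its 5 strongest.

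Fragments at and 3′ of the enhancer rose with distal V, and some of those 5′ of it fell. In resting B cells over MEF, 6 of the 13 fragment sums with distal V were higher and 2 were lower (edgeR quasi-likelihood with Benjamini-Hochberg adjustment), where 19.1% of all fragment sums were called higher and 14.3% lower. Of the 6 fragments at or 3′ of the enhancer, 5 rose and REV 79 did not pass. Of the 7 fragments 5′ of it, FOR 82 rose, FOR 86 and REV 90 fell, and 4 did not pass. Over 15 alternatives the sign over MEF was kept by all of the 13 except FOR 84, which turned positive with scaling to gene desert reads, and REV 83, which kept its sign in 8. Without pro-B replicate 2 in the fit, 6 were higher and 4 lower. The calls over MEF depended on the scaling: 3 were higher with total cis reads as library size, 2 with gene desert reads and 1 with distance decay removed, and 0 were lower in each of these edgeR fits. With all pairs weighted equally (limma) 2 were higher and 1 lower.

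FOR 78, 3′ of the enhancer, had 7377 and 6904 reads with distal V in the resting B libraries, 1440 and 2906 in the pro-B libraries, and 1870 and 2543 in MEF. The resting B libraries did not overlap with the others. It rose by 1.64 ± 0.30 over MEF on the log2 scale (± SE, n = 2 in each group; edgeR adjusted p = 0.00895) and by 1.61 ± 0.30 over pro-B cells (edgeR adjusted p = 0.008). It was also above its 6 forward neighbours, by 1.55 over MEF (edgeR adjusted p = 0.0279). Relative to neighbours over MEF, FOR 78 and REV 81 were the 2 of the 13 fragments that rose, where 2.84% of all fragment sums did, and FOR 84, REV 85, FOR 86, REV 90 and FOR 91 were the 5 that fell, where 7.55% did. Over pro-B cells 3 rose relative to neighbours (FOR 76, FOR 78 and REV 81), where 9.41% of all sums did, and 4 fell (FOR 84, REV 85, FOR 86 and REV 90), where 12.8% did. Between pro-B cells and MEF none did, where 0.162% rose and 0.0811% fell. The enhancer's reads are part of the offset of the other reverse fragments, and those of FOR 78 are part of the offset of the other forward fragments. A gain of the enhancer or of FOR 78 therefore lowers the relative values of its neighbours. In the same way, a fall of REV 90 or REV 85 raises the relative value of the enhancer, and a fall of FOR 86 raises that of FOR 78. The other fragments that rose over MEF were FOR 80 by 1.33, FOR 76 by 1.25, FOR 82 by 1.05 and REV 77 by 0.94 on the log2 scale, with adjusted p of 0.0203 to 0.0407. REV 79, between them, was at 0.60 ± 0.40 (edgeR adjusted p = 0.266).

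FOR 86, 10.3 kb 5′ of the enhancer, had 864 and 933 reads in the resting B libraries, 2200 and 4632 in the pro-B libraries, and 1987 and 2569 in MEF. Both resting B libraries were lowest. It fell by 1.40 ± 0.31 against MEF on the log2 scale (± SE, n = 2 in each group; edgeR adjusted p = 0.0165) and by 2.02 ± 0.32 against pro-B cells (edgeR adjusted p = 0.0051). REV 85, next to it, had 2413 and 2771 reads in the resting B libraries, 4925 and 7565 in the pro-B libraries, and 3765 and 5042 in MEF. The resting B libraries were again lowest. Its fold was -0.82 ± 0.28 against MEF (edgeR adjusted p = 0.0585, -0.83 and 0.0377 without its strongest pair) and -1.39 ± 0.28 against pro-B cells (edgeR adjusted p = 0.0102).

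REV 90 and REV 83 each depended on 1 pair. The REV 90 sum fell by 1.39 ± 0.42 against MEF (edgeR adjusted p = 0.0427) and by 2.09 ± 0.43 against pro-B cells (edgeR adjusted p = 0.0112). Without its pair with FOR 399, the log2 folds were -0.44 (edgeR adjusted p = 0.23) and 0.07 (edgeR adjusted p = 0.853). REV 83 was at -0.03 ± 0.48 over MEF, and at 0.90 without its pair with FOR 526 (edgeR adjusted p = 0.0259). That pair, 1614.5 kb apart, had 1510 and 2219 reads in the resting B libraries, 1068 and 9103 in the pro-B libraries, and 9231 and 3959 in MEF, and the replicates lay far apart in pro-B cells and in MEF. FOR 84 and FOR 91 did not pass in the sums, at -0.39 and -0.74 against MEF. With the strongest pair of every sum left out, 7 D-J fragments rose and 2 fell in resting B cells over MEF, where 20.2% and 15.7% of all sums did. Over pro-B cells 7 rose and 2 fell, where 19.6% and 19.8% did, and none passed between pro-B cells and MEF (edgeR), where 0.204% were higher and 0% lower.

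**Figure D3:**
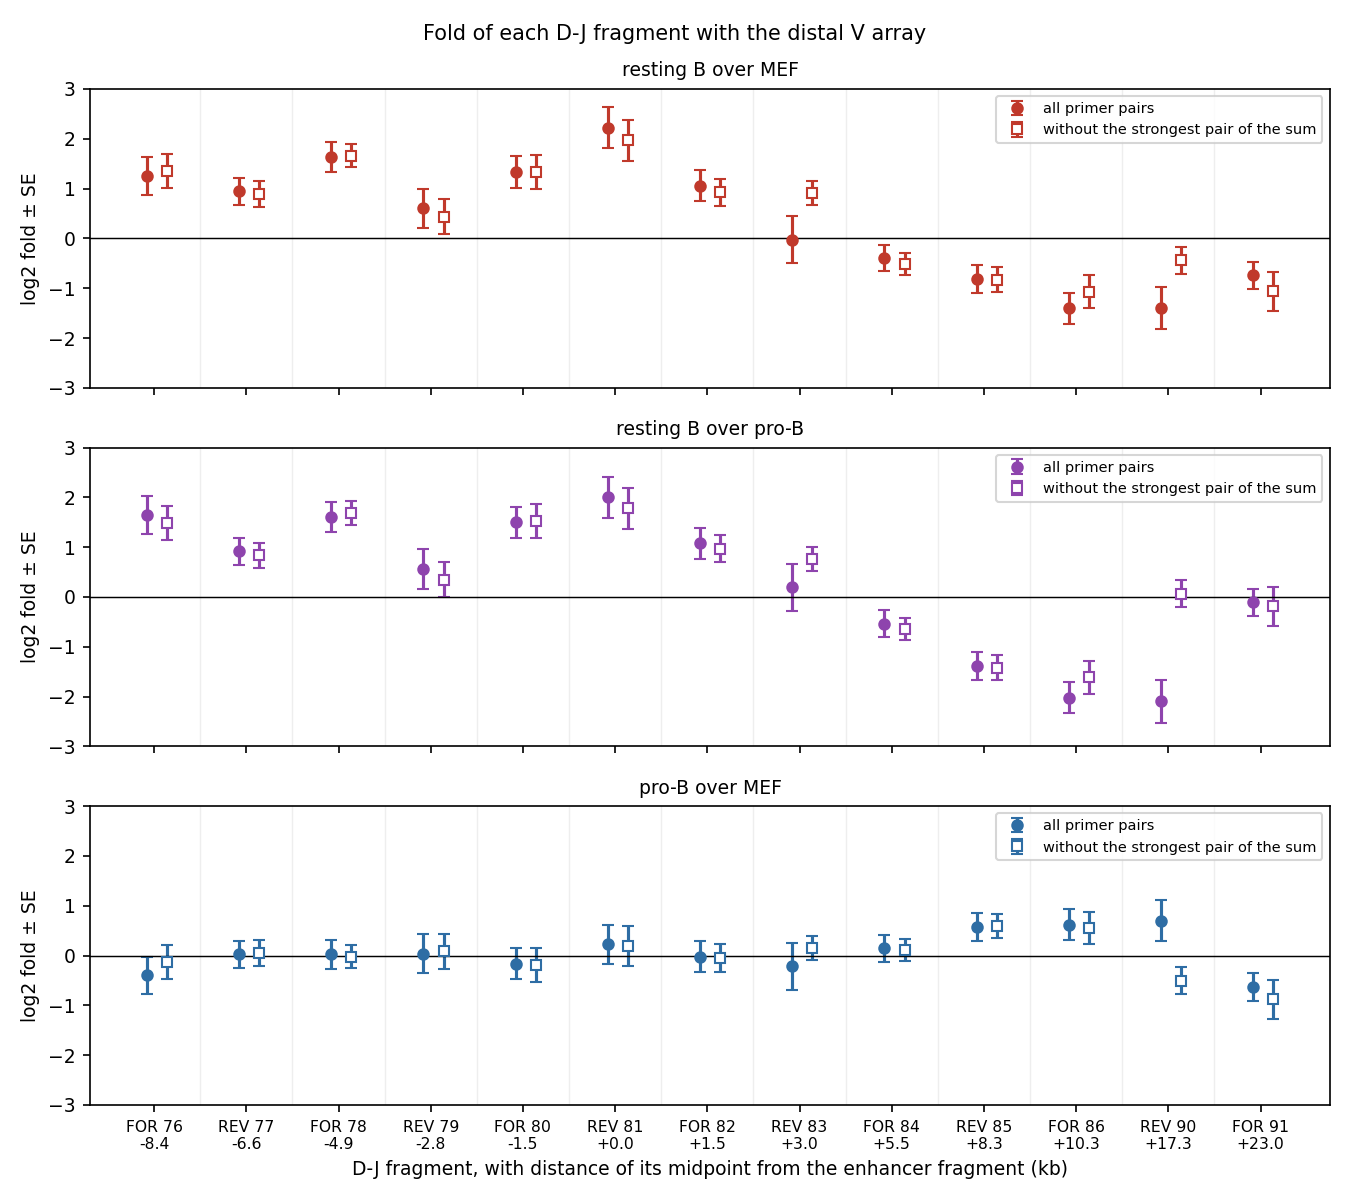
Log2 fold with SE of each D-J fragment's reads with distal V for the 3 comparisons, with all primer pairs (filled) and without the strongest pair of the sum (open); fragments run from 3′ to 5′. In both resting B comparisons the values are above 0 at FOR 76 to FOR 82 and below 0 at FOR 84 to FOR 86, the REV 90 value changes most without its strongest pair, and pro-B over MEF stays between -0.63 and 0.70 with all pairs.

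Over pro-B cells 6 fragment sums were higher and 3 were lower in resting B cells, where 17.9% of all fragment sums were higher and 19.5% lower. FOR 76, REV 77, FOR 78, FOR 80, REV 81 and FOR 82 rose and REV 85, FOR 86 and REV 90 fell. FOR 76 rose by 1.65 ± 0.38 (edgeR adjusted p = 0.0157) and FOR 80 by 1.50 ± 0.32 (edgeR adjusted p = 0.0124). Without pro-B replicate 2 the counts were again 6 and 3. They were 4 and 2 with total cis reads, 1 and 1 with gene desert reads, 1 and 3 with distance decay removed, and 3 and 1 with all pairs weighted equally. Between pro-B cells and MEF none of the 13 passed the edgeR test, with log2 folds from -0.63 to 0.70, where 1.34% of all fragment sums were called higher and 0.0406% lower, and 2 were higher without pro-B replicate 1. Both resting B comparisons share the resting B libraries and are not independent of each other. With a resting B library left out no fragment passed in either comparison, and with a MEF library left out none passed over MEF.

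In single pairs the median fold changed sign over MEF between REV 83, at 3.0 kb 5′ of the enhancer, and FOR 84, at 5.5 kb. Over MEF the fragments at or 3′ of the enhancer had median pair folds of 0.64 (REV 79) to 1.83 (REV 81) on the log2 scale, with FOR 78 at 1.54, where 33 of its 35 tested pairs were higher without overlap. FOR 82 and REV 83 had medians of 0.74 and 0.48. From FOR 84 onward the medians were below 0: -1.50 at FOR 84, -0.72 at REV 85, -1.97 at FOR 86, -0.40 at REV 90 and -1.16 at FOR 91. Over pro-B cells the medians at FOR 84, REV 85 and FOR 86 were -1.43, -1.25 and -2.22. REV 90 was at 0.20 over pro-B cells, with 10 pairs higher and 4 lower without overlap, and FOR 91 was at -0.13, with 6 higher and 4 lower, so the negative medians did not run to FOR 91 in that comparison. At FOR 84, REV 85, FOR 86 and FOR 91 the same number of pairs each, 20, were lower than in MEF without overlap, of 34, 35, 31 and 33 tested, where 35.9% of all Igh pairs were. Each fragment's pairs share its primer, so these counts describe 13 fragments and not separate events.

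**Figure D4:**
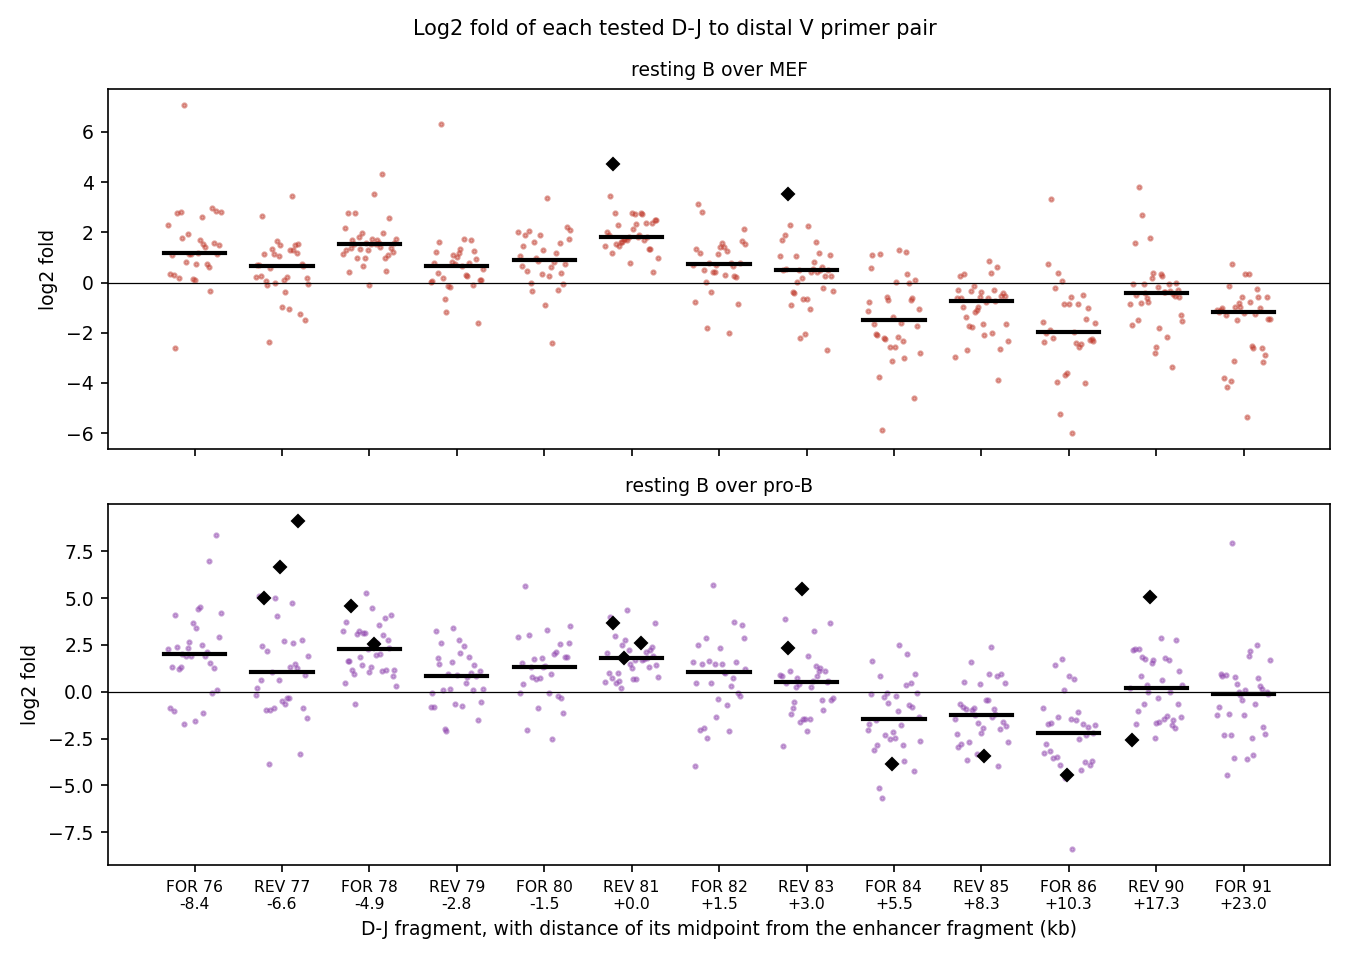
Log2 fold of each of the 428 tested primer pairs by D-J fragment for resting B over MEF (top) and resting B over pro-B (bottom), with the median as a bar and pairs past the adjusted p threshold as diamonds. In the top panel the medians are above 0 from FOR 76 to REV 83 and below 0 from FOR 84 to FOR 91; folds of pairs with no reads in 1 group depend on the fit and are not bounds.

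Over MEF, rises at or 3′ of the enhancer and falls 5′ of it were also seen with other parts of the locus. In that comparison they were not particular to the distal V genes. With the constant region, the 6 fragments at or 3′ of the enhancer held 5 that rose over MEF and none that fell, and the 7 fragments 5′ of it held none that rose and 2 that fell. With the middle V genes the counts were 3 higher at or 3′ and 2 lower 5′, and with the proximal V genes 2 higher and 3 lower. Of all fragment sums, 19.1% were called higher and 14.3% lower over MEF. Over pro-B cells, 5 fragments at or 3′ of the enhancer rose with the constant region, and 0 of those 5′ of it fell. With middle V 3 rose at or 3′, and 5′ of it 1 rose and 2 fell. With proximal V 4 rose at or 3′, and 5′ of it 1 rose and 2 fell. Of all fragment sums, 17.9% were higher and 19.5% lower over pro-B cells. The enhancer fragment itself rose over MEF by 2.04 with the constant region, by 1.59 with proximal V and by 1.28 with middle V on the log2 scale (edgeR adjusted p of 0.00925, 0.0114 and 0.0158). Its fold was 2.38 ± 0.36 with near distal V and 1.99 ± 0.49 with far distal V. Relative to its D-J neighbours the enhancer rose over MEF with distal V, proximal V and constant partners, and with middle V it was at 0.95 (edgeR adjusted p = 0.118).

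Reads between each D-J fragment and the gene desert on chromosome 5, which measure how often a fragment is recovered without a cis contact, passed the test for none of the fragments. For the enhancer they were 2420 and 3614 in the resting B libraries, 240 and 4367 in the pro-B libraries, and 1530 and 978 in MEF. Its log2 fold over MEF was -0.01 ± 0.47 (edgeR adjusted p = 0.99). FOR 86 had 249 and 347 desert reads in the resting B libraries, 104 and 415 in the pro-B libraries, and 125 and 151 in MEF, with a log2 fold over MEF of -0.13 ± 0.45 (edgeR adjusted p = 0.964). That held for all 13 fragments in the 3 comparisons (edgeR), and the folds over MEF ran from -0.26 to 0.88. Over pro-B cells the desert folds of FOR 76, FOR 78 and FOR 82 were 1.08, 1.23 and 1.19 (edgeR adjusted p of 0.0777, 0.0570 and 0.0570). Their gains with distal V over pro-B cells were 1.65, 1.61 and 1.08. REV 83 and FOR 84 had desert folds of 1.30 and 1.14 over pro-B cells (edgeR adjusted p of 0.0668 and 0.0777). Their folds with distal V were 0.19 and -0.54, and neither passed. The part of recovery in the folds with distal V was not tested. Over all Igh fragments, 0% were called higher and 0.446% lower against MEF, 2.68% higher and 6.25% lower against pro-B cells, and 0% in either direction for pro-B cells against MEF. The SEs of the 13 desert folds over MEF, 0.37 to 0.52, limit the size of a change in recovery that could have been seen.

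Of the 428 tested pairs, 175 were higher in resting B cells than in MEF without overlap and 111 were lower, where 33.9% and 35.9% of all Igh pairs were. Over pro-B cells 169 were higher without overlap and 80 lower, where 33.0% and 29.0% of all pairs were. Single pairs past the threshold were few. Over MEF 2 were higher and 0 lower in resting B cells (edgeR quasi-likelihood with Benjamini-Hochberg adjustment), where 0.369% of all Igh pairs were called higher and 0.385% lower. An unadjusted p under 0.05 was held by 50 of the 428, against 2501 of the 11940 tested Igh pairs. DESeq2 called 35, and its calls over all Igh pairs were not counted. Both edgeR calls joined FOR 415 to adjacent D-J fragments, REV 81 and REV 83. FOR 415 with REV 83 had 1979 and 2587 reads in the resting B libraries, 255 and 601 in the pro-B libraries, and 126 and 277 in MEF. The resting B libraries were well above the other 4, and the pair rose by 3.53 ± 0.51 over MEF (edgeR adjusted p = 0.044) and by 2.34 ± 0.48 over pro-B cells (edgeR adjusted p = 0.0361).

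Over pro-B cells 11 pairs were higher and 4 were lower, where 2.74% of all Igh pairs were called higher and 5.16% lower. Besides the pairs of FOR 415, those that rose included FOR 624 with the enhancer, which had 570 and 961 reads in the resting B libraries, 74 and 166 in the pro-B libraries, and 105 and 109 in MEF, and rose by 2.60 ± 0.61 (edgeR adjusted p = 0.048). FOR 501 with the enhancer rose by 1.82 ± 0.43 (edgeR adjusted p = 0.047), with 1733 and 1124 reads in the resting B libraries, 346 and 367 in the pro-B libraries, and 300 and 559 in MEF. FOR 78 with REV 571 had 725 and 669 reads in the resting B libraries, 87 and 132 in the pro-B libraries, and 29 and 98 in MEF, and rose by 2.54 ± 0.59 (edgeR adjusted p = 0.047). In each of these pairs both resting B libraries were above all others.

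Several of the other pairs that rose over pro-B cells were close to empty in pro-B cells and not in MEF. FOR 513 with REV 83 had 129 and 184 reads in the resting B libraries, 3 and 3 in the pro-B libraries, and 83 and 201 in MEF. FOR 510 with REV 90 had 118 and 109 reads in the resting B libraries, 2 and 4 in the pro-B libraries, and 15 and 55 in MEF. FOR 685 with REV 77 had 65 and 79 reads in resting B cells, none in either pro-B library, and 32 and 10 in MEF. With 3 reads per library as the floor, it was at least 21.4-fold higher in resting B cells than in pro-B cells. None of these 3 passed in resting B cells over MEF. FOR 526 and FOR 419 with REV 77 and FOR 78 with REV 418 also passed over pro-B cells, at 0 to 10 pro-B reads.

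The 4 pairs that fell against pro-B cells all joined D-J fragments 5′ of the enhancer to near distal V. FOR 86 with REV 514 (chr12:116216128-116218064) had 52 and 47 reads in the resting B libraries, 765 and 1164 in the pro-B libraries, and 652 and 401 in MEF. The resting B libraries were lowest by far, and the pair fell by 4.41 ± 0.63 against pro-B cells on the log2 scale (edgeR adjusted p = 0.0214). FOR 84, the neighbouring forward fragment, with REV 514 had 23 and 26 reads in the resting B libraries, 278 and 361 in the pro-B libraries, and 224 and 160 in MEF, and fell by 3.84 ± 0.73 (edgeR adjusted p = 0.0324). REV 85 with FOR 556 had 79 and 56 reads in the resting B libraries, 442 and 876 in the pro-B libraries, and 239 and 305 in MEF, and fell by 3.40 ± 0.55 (edgeR adjusted p = 0.0248). FOR 399 with REV 90 fell by 2.58 ± 0.52 (edgeR adjusted p = 0.0353). Against MEF the log2 folds of FOR 86 and FOR 84 with REV 514 and of REV 85 with FOR 556 were -3.59, -3.12 and -2.09, and none passed.

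No pair passed between pro-B cells and MEF in the edgeR fit, where none of the 11940 Igh pairs did (0% in either direction). Of the 428, 30 had an unadjusted p under 0.05, against 1094 of the 11940. DESeq2 called 7, and its calls over all Igh pairs were not counted. Without overlap, 73 of the 428 were higher and 102 lower, where 19.3% and 22.8% of all Igh pairs were. The count of pairs past the threshold rested on the pro-B libraries. It rose when either pro-B library was left out, in fits in which the lone pro-B library is assumed to vary like the other groups. The resting B counts in those fits rose too. Calls over all Igh pairs were not counted there, so these changes are not a result about the D-J with distal V pairs. No resting B call on a pair held with a MEF or resting B library left out.

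Seen from the V side, 6 of the 70 tested distal V fragments had more reads with the D-J region in resting B cells than in MEF and none had fewer, where 19.1% and 14.3% of all fragment sums were called. Their folds were above 0 for 56 of the 70, with a median of 0.59. FOR 415 led, with 10425 and 10166 reads in the resting B libraries, 1108 and 1675 in the pro-B libraries, and 662 and 1542 in MEF. It rose by 3.26 ± 0.31 over MEF (edgeR adjusted p = 0.00444), and by 1.86 without its pair with the enhancer (edgeR adjusted p = 0.00599). Against the gene desert its fold over MEF was -0.04 (edgeR adjusted p = 0.99).

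FOR 419 (chr12:115824507-115826299), close to FOR 415, had 1001 and 1375 reads in the resting B libraries, 228 and 110 in the pro-B libraries, and 213 and 183 in MEF, and rose by 2.47 ± 0.60 over MEF (edgeR adjusted p = 0.0217). Without its pair with the enhancer it was at 1.85 (edgeR adjusted p = 0.0807). REV 571 (chr12:116433753-116436207), which meets no enhancer primer, had 1791 and 2453 reads in the resting B libraries, 399 and 312 in the pro-B libraries, and 437 and 797 in MEF, and rose by 1.79 ± 0.39 over MEF (edgeR adjusted p = 0.015). FOR 624 (chr12:116605743-116610576) was the strongest of the far fragments by fold, at 1.70 ± 0.36 over MEF (edgeR adjusted p = 0.0133), and FOR 404 was at 1.66 ± 0.47 (edgeR adjusted p = 0.0352). In all of these the 2 resting B libraries were above the other 4.

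Over pro-B cells 9 V fragments rose and 2 fell, where 17.9% and 19.5% of all fragment sums did. The far fragment FOR 764 had the highest fold, at 2.77 (edgeR adjusted p = 0.0475). FOR 415 rose by 2.76, FOR 419 by 2.58, REV 571 by 2.39 and FOR 624 by 2.17. FOR 712 was at 2.30 and did not pass (edgeR adjusted p = 0.102). The 2 that fell, FOR 399 by 1.89 and REV 514 by 1.89, each did so through 1 pair: without it they were at 0.72 and -0.44, and neither passed. Over MEF the lowest V fragment was FOR 526, at -1.87 (edgeR adjusted p = 0.132). FOR 399 was at -1.03 over MEF (edgeR adjusted p = 0.112) with all pairs and at 1.46 without its pair with REV 90 (edgeR adjusted p = 0.0372). None of the 70 passed between pro-B cells and MEF (edgeR), where 1.34% and 0.0406% of all fragment sums were called.

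The far sum over all D-J fragments had 29529 and 31285 reads in the resting B libraries, 14385 and 12570 in the pro-B libraries, and 13298 and 20069 in MEF. Both resting B libraries were highest, and the far sum was 0.83 ± 0.29 over MEF (edgeR adjusted p = 0.0406) and 0.99 ± 0.29 over pro-B cells (edgeR adjusted p = 0.0306), where 32.7% and 20.0% of the 55 region pairs were called higher and 16.4% and 21.8% lower. Without any 1 MEF or resting B library the far fold over MEF was 0.72 to 0.94 and did not pass (edgeR adjusted p of 0.148 to 0.305). With equal weight for every pair it was 0.020 (limma adjusted p = 0.949). With total cis reads as library size it was 1.06 (edgeR adjusted p = 0.103) and with gene desert reads 1.30 (0.207). Over pro-B cells the far fold reversed to -0.32 with distance decay removed (edgeR adjusted p = 0.478) and was 1.35 with gene desert reads (0.258). It also did not pass without MEF replicate 1 (0.98, edgeR adjusted p = 0.0631), resting B replicate 1 (1.10, 0.123) or resting B replicate 2 (0.88, 0.207). The near sum had 60537 and 63689 reads in the resting B libraries, 42922 and 102864 in the pro-B libraries, and 49220 and 57296 in MEF, and its groups overlapped. The near sum was at 0.14 ± 0.32 over MEF and -0.31 ± 0.32 over pro-B cells, and neither passed. Between pro-B cells and MEF neither sum passed, at 0.46 ± 0.32 for near and -0.16 ± 0.29 for far, where 9.09% of region pairs were called higher and 0% lower. Without pro-B replicate 1 the near sum passed, at 0.82 for pro-B cells over MEF (edgeR adjusted p = 0.00299) and at -0.69 for resting B over pro-B cells (edgeR adjusted p = 0.0113). Without its strongest pair, REV 90 with FOR 399, the near fold of resting B cells was 0.71 over MEF (edgeR adjusted p = 0.0463) and 0.62 over pro-B cells. Far pairs made up 32.8% and 32.9% of the reads in the resting B libraries, 25.1% and 10.9% in the pro-B libraries, and 21.3% and 25.9% in MEF. Without that 1 pair the far shares were 36.0% and 35.2% in the resting B libraries, 37.2% and 22.9% in the pro-B libraries, and 30.6% and 37.8% in MEF, and the groups overlapped.

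Pairs above what distance and primer strength predicted were counted from a model of each library with a spline of separation and an effect for each primer. A pair stood out when its standardised residual was at least 2 in both libraries of a cell type. Of the 461 pairs, 3 stood out in resting B cells, 1 in the pro-B libraries and 2 in MEF, where 0.914%, 0.374% and 0.208% of all Igh pairs over 50 kb did. REV 90 with FOR 399 stood out in all 3 cell types, with residuals of 9.42 and 5.48 in the resting B libraries, 13.0 and 18.9 in the pro-B libraries, and 8.50 and 15.3 in MEF. REV 83 with FOR 526 stood out in resting B cells, at 2.98 and 3.90, and in MEF, at 4.60 and 2.66. The enhancer with FOR 415 stood out in resting B cells, at 3.79 and 2.95, with residuals of 0.13 and 0.38 in pro-B cells and 0.01 and 0.02 in MEF. FOR 671 with the enhancer, a pair of many reads in resting B cells, had residuals of -0.07 and -0.47 there, so its reads were near what its primers and distance gave.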

How the data were processed

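5C was measured in 6 libraries of 3 cell types, grouped by the titles in the labels. The deposited values are read counts for each primer pair, per the file headers. Alignment with Novoalign to mm9 is named in the submitters' processing notes, its version not given in the sources used here. Pairs not listed were set to 0, a second numeric column holding 1 throughout was not used, and 0 columns belonged to other samples. The primer pairs described here and all lists were chosen with earlier results of these data known.

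Counts of the pairs that reached 10 reads in 2 or more libraries (428 of the 461) were tested with edgeR 4.0.16 in R 4.3.3: library sizes were scaled by TMM on the tested cis pairs, 1 quasi-likelihood model by cell type took all 6 libraries, and p was adjusted (Benjamini-Hochberg) across 11940 Igh pairs, with a threshold of 0.05. Sums over 55 region pairs, over fragment by region (2465) and with the gene desert were tested in the same way, and the relative measure took the reads of the other fragments of the same region and primer direction as offset. SE is the log2 fold over the square root of F. Scaled CPM are CPM on the TMM effective library size. The scripts were tested on simulated data.

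Named pairs were those past the threshold, up to 10 per direction, filled to 5 by unadjusted p among pairs whose groups did not overlap, of which the text describes some. The 5 highest enhancer partners, all D-J fragments and all pairs that stood out were also named by rule. So were the 5 highest and 5 lowest V fragments of each comparison, of which the text describes some, mostly rises. Other pairs were named because they held most of a named fragment's sum. Alternatives were other scalings, DESeq2 1.42.0, limma 3.58.1 on each pair once (log2 of reads plus 1), distance removal, count filters, the strongest pair left out, each library left out, and, chosen after seeing the data, edgeR's bias-adjusted deviances and all alternatives for the count of D-J fragments. Replicate numbers are shared between cell types but did not pair the libraries: correlations of same-numbered deviations were -0.03, 0.01 and 0.09. The spread between replicates exceeded sampling noise (chi-square over its degrees of freedom, 18.3 to 92.5), so each library counted as 1 replicate. The mm9 sequence and annotation were not used, so no V gene is named.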

Additional observations from a re-analysis of the deposited data

How the results depend on the processing

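The enhancer fragment kept its direction in both resting B comparisons under all alternatives run; its pro-B over MEF values did not. The values below are log2 folds unless called counts, with the cause of each change not tested. Other library sizes moved the median of all Igh pairs, to 0.21 (resting B over MEF) and 0.28 (resting B over pro-B) with total cis reads, to 0.45, 0.29 and 0.19 (pro-B over MEF) with desert reads, and to 0.05, -0.50 and 0.55 with distance decay removed. Against these, the far distal V sum over MEF was 1.06 with total reads and 1.30 with desert reads, and over pro-B cells 1.35 with desert reads, none past the threshold. The count of D-J fragments past it, 8 over MEF and 9 over pro-B cells, was 3 over MEF with total reads (3 higher, 0 lower), and 2 (2 and 0) and 2 (1 and 1) with desert reads. With distance decay removed the far sum was 0.31 over MEF, -0.32 for resting B over pro-B and 0.63 for pro-B over MEF, 1 (1 and 0) and 4 (1 and 3) D-J fragments passed, and 1 single pair passed over MEF. With each pair counted once (limma), the near sum was -0.58 for pro-B over MEF and 0.73 for resting B over pro-B (past the threshold, adjusted p = 0.0277), the far sum was 0.020 for resting B over MEF and -0.90 for pro-B over MEF (past the threshold), the enhancer was -0.55 for pro-B over MEF, and 3 (2 and 1) and 4 (3 and 1) D-J fragments passed. Without the strongest pair the near sum was 0.71 over MEF (past the threshold) and 0.62 over pro-B cells, and the far sum 0.64 over MEF (not past it). Counts of single pairs past the threshold were 7 (pro-B over MEF), 35 (resting B over MEF) and 80 (resting B over pro-B) with DESeq2. They were 91 over MEF and 0 over pro-B cells with only the 4 libraries compared, where the enhancer relative to neighbours was 2.76 over pro-B cells (adjusted p = 0.0518). They were 4 over MEF with no filter, 4 with at least 50 reads, and 8 and 68 with bias-adjusted deviances. Calls over all Igh pairs were counted in the main fit only. Counts of single pairs under the alternatives therefore show dependence on the processing and are not a result about these pairs. With the median of neighbours as offset the enhancer was -0.31 for pro-B over MEF. Stand-out counts were 3 in pro-B, 8 in resting B and 4 in MEF with a log2 linear model. Of the 12038 Igh pairs over 50 kb, 40, 131 and 118 stood out in that model. At a residual of 3 the counts were 1 in resting B and 1 in MEF, where 52 and 19 of all pairs stood out. With a straight line 5 stood out in resting B, where 101 of all pairs did.

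With the replicate block, 1 single pair passed over MEF and 2 over pro-B cells, the enhancer relative to neighbours was -0.11 for pro-B over MEF, and no other call changed.

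With 1 library left out at a time, counts of single pairs ran from 0 to 155 (pro-B over MEF), 0 to 93 (resting B over MEF) and 0 to 205 (resting B over pro-B), and counts of D-J fragments from 0 to 2, 0 to 10 and 0 to 10. In the same order of comparisons, the near sum ran from -0.018 to 0.82, -0.071 to 0.38 and -0.69 to 0.15, and the far sum from -0.50 to 0.12, 0.72 to 0.94 and 0.70 to 1.32. The enhancer sum ran from -0.37 to 0.65, 2.09 to 2.36 and 1.57 to 2.59, and relative to its neighbours from -1.23 to 0.72, 2.69 to 2.97 and 2.10 to 4.05. Of the pro-B over MEF values, the near sum of 0.82 and the relative value of -1.23, and of the resting B over pro-B values the near sum of -0.69, passed the threshold, each without pro-B replicate 1.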
